A study of Mus musculus with 12 samples.

Results

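A set of 10 genes that mark neutrophils was followed in mouse lung tumors and in normal mouse lung. The genes are S100a8, S100a9, Camp, Ngp, Mmp8, Mmp9, Csf3r, Cxcr2, Retnlg and Ly6g, and each was matched by its symbol to 1 Ensembl identifier, so that all 10 were found among the 30399 genes of the expression table. The series is a poly-A RNA sequencing study of mouse lung tumors modelled with CRISPR/Cas9, a guided nuclease that disables chosen genes, delivered without a virus. It holds 12 libraries, 5 labelled normal lung and 7 labelled tumor, and the labels give no strain, age, sex, genotype, guide or treatment for either group. The titles carry numbers: 159 for tumors 3 and 4, 201 for tumors 5, 6 and 7, and separate ones for tumor 1 (153) and tumor 2 (156). The titles of tumors 3 to 6 also hold the Spanish word for lung, those of tumors 1 and 7 the word for trachea, and that of tumor 2 neither. What the numbers stand for is not stated, so p-values measure the spread between these samples, some of which may come from 1 animal.

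Values are normalized counts, meaning reads per gene divided by a size factor for each sample, and are not scaled by gene length. Between 11126432 and 17032234 reads were assigned to genes in normal lung and between 13093843 and 24217633 in tumors, and 3 reads correspond to a normalized count of at most 4.85 in normal lung and 3.57 in tumors. The tissue labels were checked with marker genes. The summed level of 5 lung epithelial markers was 214806 to 404466 in normal lung and 237.6 to 2441 in tumors, and that of 4 neuroendocrine markers was 73.4 to 100.1 and 19207 to 86304.

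Neutrophils are short-lived white blood cells that are made in the bone marrow, circulate in blood and are held in large numbers in the capillaries of the lung. While they mature they fill successive sets of granules, first with proteases and peroxidase, then with antimicrobial proteins such as Camp and Ngp, and last with gelatinase, and their receptors Csf3r and Cxcr2 are most abundant on mature cells. Genes for granule proteins are read mainly in precursors in the marrow, whereas S100a8, S100a9 and the receptors remain expressed in circulating cells.

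Neutrophil genes were lower in the tumors than in normal lung, with 1 tumor as an exception for many of them. With limma on log2(normalized count + 1), 8 of the 10 genes fell in tumors at an adjusted p under 0.05, where 30.1% of all 23674 genes tested were lower by the same rule. None of the 10 rose, where 31.4% of all genes did, and Camp and Ngp did not pass. The median log2 difference over the 10 genes was -4.65, and over all genes tested it was 0.04. All 10 genes passed the filter for the test, which asked for a mean value of at least 1 over the 12 samples. In a bulk sample, fewer neutrophils and less RNA of these genes per neutrophil cannot be told apart.

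Tumor 2 stood apart from the other tumors in these genes. It had the highest value of the 7 tumors in 9 of the 10 genes, Csf3r being the exception, where tumor 2 was the highest tumor in 21.0% of all genes tested. The 9 include Ly6g, with 1 read in tumor 2 and 1 in tumor 7, which cannot be ranked at this depth. Tumor 2 was above every normal lung in 5 of the genes (S100a8, S100a9, Camp, Ngp and Mmp9), below every normal lung in 2 (Csf3r and Cxcr2) and within the normal lung range in 3 (Mmp8, Ly6g and Retnlg). Each of the other 6 tumors was below every normal lung in 9 of the 10 genes and within the range in Camp; the order of Ly6g again rests on 1 read in tumor 7 and 1 in normal lung 5. In 2 of the 10 genes all 7 tumors were below all 5 normal lungs (18.4% of all genes tested), and in 9 of the 10 the 6 tumors other than tumor 2 were (19.8% of all genes tested). Without tumor 2, limma placed 9 of the 10 genes lower in tumor (30.2% of all genes tested), Camp being the exception. With all 12 samples, edgeR's quasi-likelihood test on the recovered reads placed 5 of the 10 lower (26.1% of all genes tested), namely Csf3r, Cxcr2, Ly6g, Mmp8 and Retnlg.

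**Figure D1:**
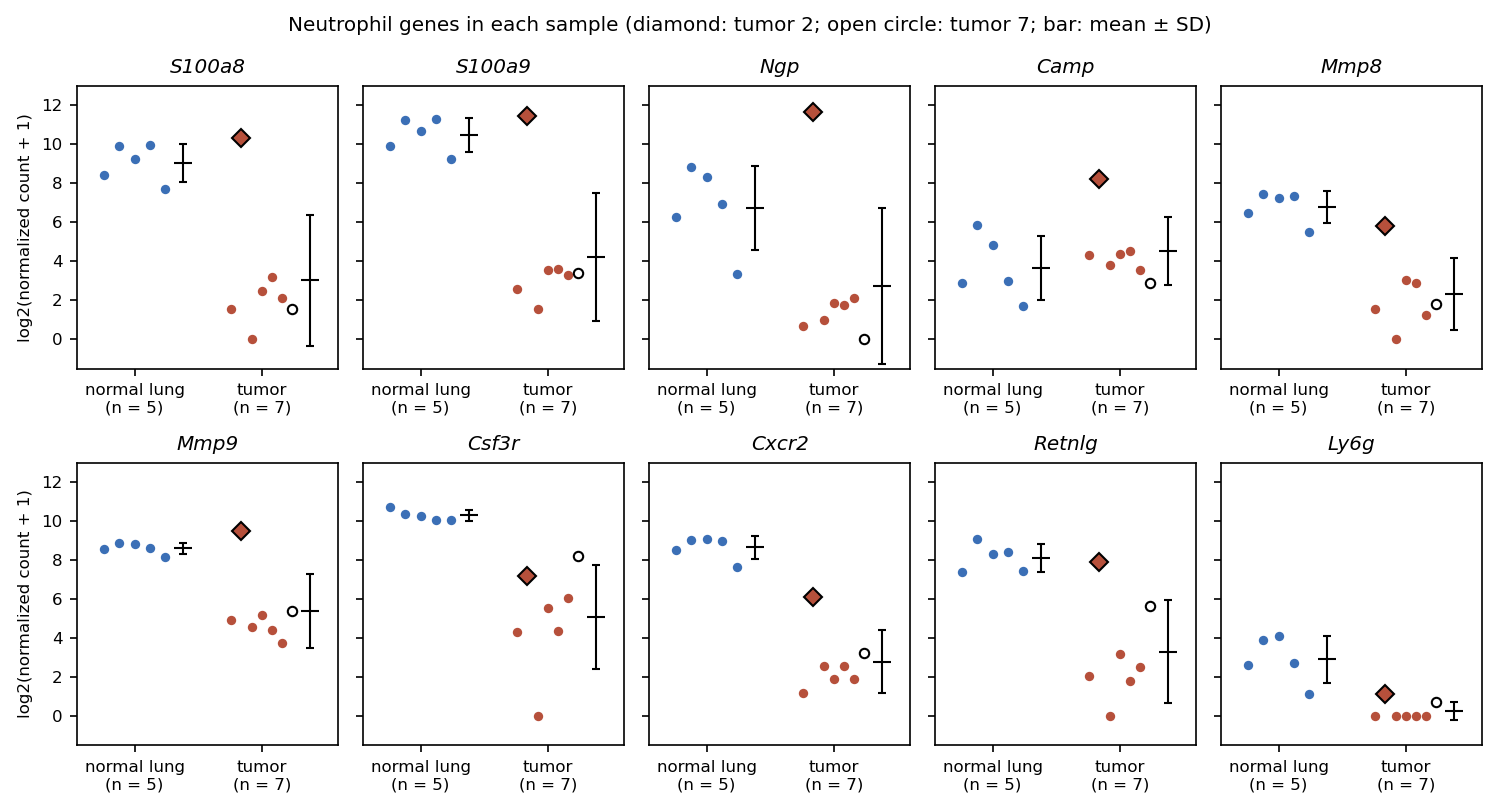
Value of each neutrophil gene in each sample, as log2(normalized count + 1), with 5 normal lungs (blue) and 7 tumors (red) and the mean ± SD of each group beside the points. Tumor 2 (diamond) lies above the normal lung values in S100a8, S100a9, Ngp, Camp and Mmp9, while the other tumors lie below the normal lungs in every panel but Camp and Ly6g, where tumor 7 and normal lung 5 have 1 read each.

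The promoters of 4 of the genes are shown because they stand for the 2 patterns in tumor 2: S100a8, S100a9 and Ngp, which were above normal lung there, and Csf3r, which was below it. Each is the RefSeq window from 250 bases before to 50 bases after the annotated start in GRCm38.p6, an older build than the GRCm39 named for the table. The windows are chr3:90668821-90669120 on the plus strand (S100a8), chr3:90695672-90695971 on the minus strand (S100a9), chr9:110419558-110419857 on the plus strand (Ngp) and chr4:126024409-126024708 on the plus strand (Csf3r). Capitals mark matches on either strand to TTGCNNAA, a form of the motif bound by C/EBP factors, to GAGGAAG, the core bound by PU.1, and to TATAAA, the TATA box, and these matches do not overlap.
S100a8: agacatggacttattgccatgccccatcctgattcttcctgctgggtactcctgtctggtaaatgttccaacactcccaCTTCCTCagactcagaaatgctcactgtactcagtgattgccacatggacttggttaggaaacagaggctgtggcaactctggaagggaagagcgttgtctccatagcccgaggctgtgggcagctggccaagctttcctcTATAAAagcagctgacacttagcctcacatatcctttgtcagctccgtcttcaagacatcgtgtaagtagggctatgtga
S100a9: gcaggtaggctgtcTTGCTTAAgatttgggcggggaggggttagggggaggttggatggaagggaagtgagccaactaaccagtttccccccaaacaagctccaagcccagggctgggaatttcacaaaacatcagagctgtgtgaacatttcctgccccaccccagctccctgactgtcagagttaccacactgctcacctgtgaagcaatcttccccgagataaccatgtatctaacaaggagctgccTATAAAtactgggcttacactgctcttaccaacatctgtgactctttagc
Ngp: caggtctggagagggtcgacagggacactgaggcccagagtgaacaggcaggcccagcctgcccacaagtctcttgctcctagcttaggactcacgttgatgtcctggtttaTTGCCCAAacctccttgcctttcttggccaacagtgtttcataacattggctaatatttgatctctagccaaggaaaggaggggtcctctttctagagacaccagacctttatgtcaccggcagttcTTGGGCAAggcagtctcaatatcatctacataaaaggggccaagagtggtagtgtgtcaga
Csf3r: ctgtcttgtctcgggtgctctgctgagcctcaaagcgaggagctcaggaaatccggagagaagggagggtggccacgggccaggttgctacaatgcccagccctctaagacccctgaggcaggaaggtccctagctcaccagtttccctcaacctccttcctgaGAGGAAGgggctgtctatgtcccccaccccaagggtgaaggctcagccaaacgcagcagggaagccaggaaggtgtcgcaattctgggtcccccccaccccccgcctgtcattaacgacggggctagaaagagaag

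Promoter windows were found for 9 of the 10 genes, all but Mmp9. The C/EBP letters were present in windows of 5 of the 9 genes (S100a9, Ngp, Mmp8, Ly6g and Retnlg) and in 10.8% of all 32851 windows of the same length. The PU.1 letters were present in 4 of the 9 (S100a8, Mmp8, Csf3r and Ly6g) and in 13.6% of all windows, and the TATA box letters in 4 of the 9 (S100a8, S100a9, Mmp8 and Ly6g) and also in 13.6% of all windows. The place of the TATA box letters differed between the genes. They began 30 bases before the start in S100a8, at base 1 of the transcript in S100a9 and 3 bases before the start in Mmp8. In the windows of Ly6g they began 99 and 167 bases before it. Ngp had C/EBP letters beginning 138 and 11 bases before the start. A match is a description of these letters, with no measurement of binding.

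S100a8 and S100a9 encode the 2 calcium-binding proteins that pair as calprotectin, the most abundant protein of neutrophil cytoplasm. S100a9 (ENSMUSG00000056071) had 985, 2431, 1678, 2501 and 608 normalized counts across the 5 normal lungs in order, whereas tumors 1 to 7 had 5.06, 2847, 1.98, 10.8, 11.3, 8.76 and 9.61. Tumor 2 was above the highest normal lung, and the other 6 tumors were all below 12 normalized counts. S100a9 fell by 6.27 on the log2 scale in limma (SE 1.32, adjusted p = 0.00104), by 7.48 without tumor 2 (adjusted p = 7.88e-08), and by 2.03 in edgeR without passing (adjusted p = 0.271).

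S100a8 (ENSMUSG00000056054) followed S100a9. It had 348, 974, 612, 1009 and 210.4 normalized counts across the 5 normal lungs in order, whereas tumors 1 to 7 had 1.90, 1296, 0, 4.49, 8.09, 3.37 and 1.92. In tumors other than tumor 2 these values rest on 0 to 10 reads, against 183 to 906 reads in normal lung and 1088 in tumor 2. S100a8 fell by 6.04 in limma (SE 1.37, adjusted p = 0.00177) and by 1.80 in edgeR without passing (adjusted p = 0.339), and without tumor 2 the edgeR difference was -7.55 (adjusted p = 2.22e-06). The ratio of S100a9 to S100a8 was 2.48 to 2.89 in normal lung and 2.20 in tumor 2, just below that range.

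Ngp, neutrophilic granule protein, and Camp, the cathelicidin antimicrobial peptide, belong to the secondary granules that are filled while neutrophils are still immature, and neither passed the test. Ngp (ENSMUSG00000032484) had 76.1, 460.2, 325, 121 and 9.20 normalized counts across the 5 normal lungs in order, whereas tumors 1 to 7 had 0.633, 3270.05, 0.991, 2.69, 2.43, 3.37 and 0. Tumor 2 was 27.0 times the normal lung median, and the other 6 tumors rested on 0 to 5 reads each. The normal lungs themselves spread widely, from 8 reads in normal lung 5 to 428 in normal lung 2.

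The group difference of Ngp turned on tumor 2. It was -4.01 in limma (SE 1.73, adjusted p = 0.0576) and passed without tumor 2 (-5.50, adjusted p = 0.000143) or without normal lung 5 (-4.86, adjusted p = 0.0343). In edgeR it was 1.19 with all samples (adjusted p = 0.622) and -6.83 without tumor 2 (adjusted p = 0.000108), so its sign was set by 1 library. Camp (ENSMUSG00000038357) had 6.45, 57.0, 27.5, 7.05 and 2.30 normalized counts across the 5 normal lungs in order, whereas tumors 1 to 7 had 19.0, 299.0, 12.9, 19.8, 21.8, 10.8 and 6.40. Outside tumor 2 the tumors lay inside the normal lung range, and Camp was the 1 gene of the 10 that was not lower in those tumors. Its difference of 0.86 in limma (SE 0.89, adjusted p = 0.417) was 0.25 without tumor 2 (adjusted p = 0.765).

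In normal lung and in tumor 2 Ngp and Camp kept a similar proportion. The ratio of Ngp to Camp was 8.08 to 17.2 in the 4 normal lungs with more than 3 reads of both, and 10.9 in tumor 2. In tumor 6, the remaining tumor with more than 3 reads of both, it was 0.312, with 5 reads of Ngp.

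Mmp8, neutrophil collagenase, and Mmp9, gelatinase B, are secreted proteases stored in neutrophil granules, with gelatinase in those filled last. Mmp9 is also made by macrophages. Mmp9 (ENSMUSG00000017737) had 379.2, 465.5, 449, 384 and 287 normalized counts across the 5 normal lungs in order, whereas tumors 1 to 7 had 29.1, 708, 22.8, 35.02, 20.2, 12.1 and 40.3. Normal lungs were close together, tumor 2 was 1.84 times their median, and the other tumors were 12.1 to 40.3. Mmp9 fell by 3.23 in limma (SE 0.76, adjusted p = 0.00232) and by 1.71 in edgeR without passing (adjusted p = 0.131). Mmp8 (ENSMUSG00000005800) had 87.7, 176, 152, 162 and 44.8 normalized counts across the 5 normal lungs in order, whereas tumors 1 to 7 had 1.90, 54.8, 0, 7.18, 6.47, 1.35 and 2.56. Unlike Mmp9, Mmp8 in tumor 2 was within the normal lung range, above normal lung 5 only. Mmp8 fell by 4.48 in limma (SE 0.80, adjusted p = 0.000307) with an edgeR difference of -3.63 (adjusted p = 0.00546).

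The receptor genes were low in every tumor, tumor 2 included. Csf3r encodes the receptor for G-CSF, the growth factor that drives neutrophil production, and Cxcr2 the chemokine receptor that draws mature neutrophils out of the marrow and into tissue. Csf3r (ENSMUSG00000028859) had 1697, 1305, 1229, 1052 and 1070.3 normalized counts across the 5 normal lungs in order, whereas tumors 1 to 7 had 18.4, 142, 0, 44.9, 19.4, 64.0 and 291. The highest tumor was tumor 7, at 291, and tumor 3 had no read. Csf3r fell by 5.22 in limma (SE 1.05, adjusted p = 0.000729) with an edgeR difference of -3.90 (adjusted p = 0.00211).

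Cxcr2 (ENSMUSG00000026180) had 362, 519, 535, 501 and 198 normalized counts across the 5 normal lungs in order, whereas tumors 1 to 7 had 1.27, 67.9, 4.96, 2.69, 4.85, 2.70 and 8.33. Tumor 2 was the highest tumor and still 7.38 times below the normal lung median. Cxcr2 fell by 5.87 in limma (SE 0.69, adjusted p = 8.18e-06) with an edgeR difference of -5.07 (adjusted p = 0.000317), and it passed in every alternative run.

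In tumor 2 the ratios of Ngp to both receptor genes and of S100a8 to Csf3r were above the normal lung range. This follows from the values above and is no separate result. Ngp and S100a8 were above every normal lung there, and Csf3r and Cxcr2 below. The ratio of Ngp to Cxcr2 was 0.0465 to 0.886 in the 5 normal lungs and 48.2 in tumor 2, and the ratio of Ngp to Csf3r was 0.00859 to 0.353 and 23.1. S100a8 over Csf3r was 0.197 to 0.958 in normal lung and 9.14 in tumor 2. In tumors 4, 5 and 6, also with more than 3 reads of both, it was 0.1, 0.417 and 0.0526. Of the other tumors, tumor 6 alone had more than 3 reads of both Ngp and a receptor gene. Its ratio of Ngp to Cxcr2 was 1.25, also above the normal lung range but from 5 and 4 reads, and its ratio of Ngp to Csf3r was 0.0526, inside the range.

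**Figure D2:**
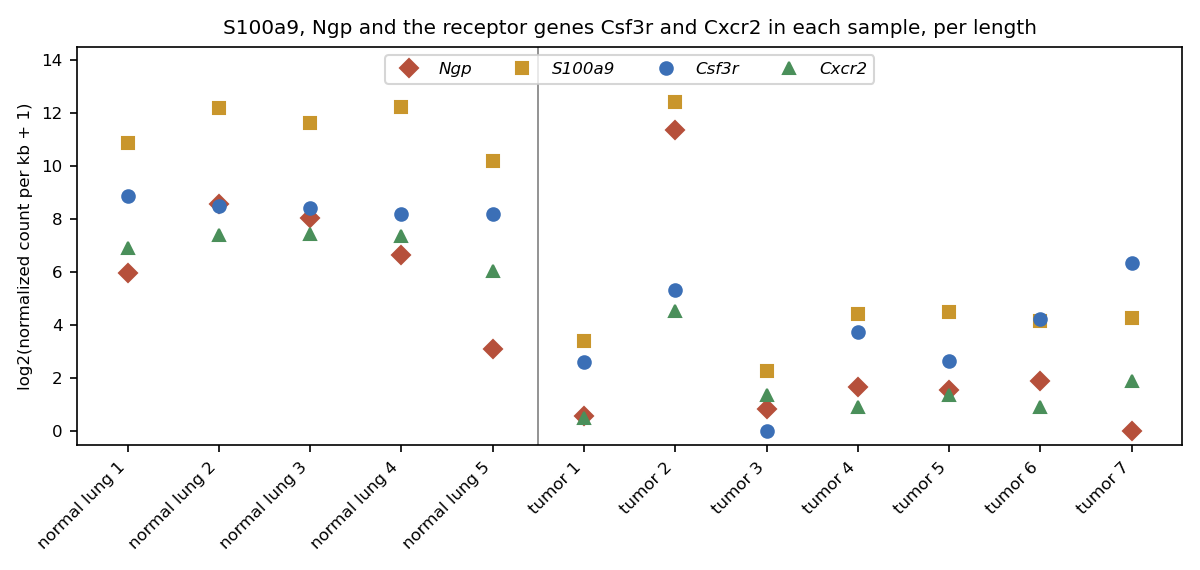
Level of S100a9, Ngp, Csf3r and Cxcr2 in each of the 12 samples, as log2(normalized count per kilobase of exon + 1), with the line parting normal lungs from tumors. In tumor 2 S100a9 and Ngp are above their normal lung levels while Csf3r and Cxcr2 are below theirs, and in tumor 7 Csf3r is the highest of the 4.

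Retnlg, a resistin-like protein secreted by neutrophils, and Ly6g, the surface protein used to identify them in mice, complete the set. Retnlg (ENSMUSG00000022651) had 165, 534, 315, 341 and 170.1 normalized counts across the 5 normal lungs in order, whereas tumors 1 to 7 had 3.17, 238, 0, 8.08, 2.43, 4.72 and 48.0. Tumor 2 was within the normal lung range, and tumor 7 was next at 48.0. Retnlg fell by 4.82 in limma (SE 1.08, adjusted p = 0.00162) with an edgeR difference of -2.84 (adjusted p = 0.0484). Ly6g (ENSMUSG00000022582) was scarce everywhere, with 4, 13, 10, 4 and 1 reads in normal lungs 1 to 5, 1 read each in tumors 2 and 7 and none in the other 5 tumors. Its limma difference of -2.63 (SE 0.48, adjusted p = 0.000381) rests on these few reads, and Ly6g belongs to a family of similar genes whose reads can be hard to place.

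**Figure D3:**
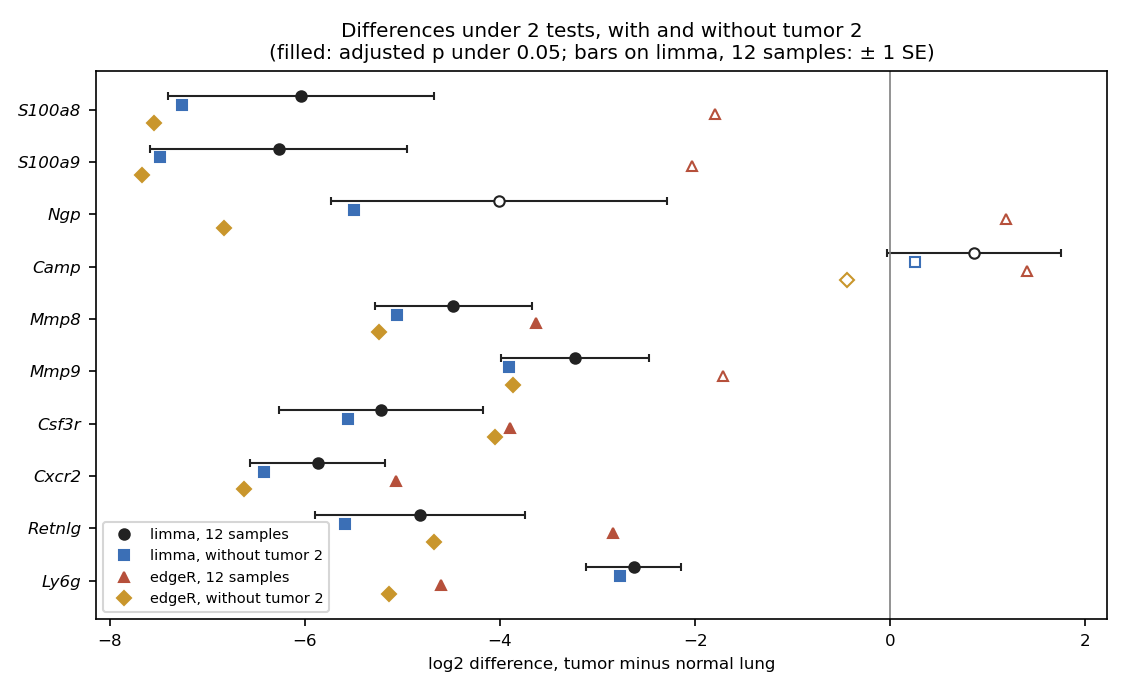
Log2 difference, tumor minus normal lung, for each neutrophil gene under limma and edgeR with and without tumor 2; filled symbols passed an adjusted p of 0.05 and the bars are ± 1 SE of the limma fit with 12 samples. Csf3r, Cxcr2, Mmp8, Retnlg and Ly6g are filled in all 4 fits, while S100a8, S100a9 and Mmp9 are open in edgeR with 12 samples and filled in edgeR without tumor 2.

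Levels can be ranked between genes only per length, here as normalized counts per kilobase of annotated exon. By normal lung median the order was S100a9 (3215), S100a8 (882), Retnlg (531), Csf3r (341), Cxcr2 (164), Mmp9 (108), Ngp (99.3), Mmp8 (62.6), Camp (9.31) and Ly6g (5.99). The ranges over the 5 normal lungs overlapped between all neighbours in this order except Csf3r and Cxcr2, for example S100a8 at 303 to 1453 with Retnlg at 278 to 901, and Ngp at 7.53 to 377 with Mmp8 at 18.5 to 72.7. In tumor 2 Ngp, at 2676 per kilobase, came between S100a9 at 5454 and S100a8 at 1868, and Camp, at 394, came above Mmp9 at 199.9. In tumor 7 the order opened with Retnlg (81.0) and Csf3r (80.6), followed by S100a9 at 18.4.

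Genes of other stages of neutrophil life were read from lists of granule and maturation genes. Among 5 genes of primary granules, which are filled first, 1 rose in tumors, none fell and 4 did not pass. Of all genes tested, 31.4% rose and 30.1% fell. The list median log2 difference was 0.44. Elane, neutrophil elastase, had 0 to 2.15 normalized counts in normal lung, 59.6 in tumor 2 and at most 7.18 in the other tumors, and Mpo, myeloperoxidase, had 0 to 7.05, 26.2 and at most 1.35. These are 50 reads of Elane and 22 of Mpo in tumor 2. Tumor 2 was the highest tumor in 3 of the 5 genes (21.0% of all genes tested). Ms4a3, a membrane protein of granulocyte precursors, had 1 read in tumor 2 and 25 in tumor 7, and Prtn3 was highest in tumor 6. Elane and Mpo did not pass over the groups (adjusted p = 0.166 for Elane and 0.832 for Mpo in limma). Prtn3, proteinase 3, rose by 1.88 (SE 0.31, adjusted p = 0.000156) and was above every normal lung in all 7 tumors, but its exons overlap those of Plppr3 on the opposite strand by 159 bases, and whether counting used the strand is not stated.

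Secondary granule and mature neutrophil genes were mostly lower. Of 7 further secondary granule genes tested, 5 fell (30.1% of all genes tested) and 2 did not pass. Their median log2 difference was -2.22. Lcn2, an iron-scavenging protein that lung epithelium also makes, fell by 3.52 (SE 0.79, adjusted p = 0.0017) and was at 666 normalized counts in tumor 2, below every normal lung. Cd177, a surface protein of neutrophils, fell by 3.09 (SE 0.88, adjusted p = 0.00818) and was at 232 normalized counts in tumor 2, inside the normal lung range, against at most 53.2 in the other tumors. Ltf, lactoferrin, did not pass (-1.24, adjusted p = 0.463) and had another order, with 176 normalized counts in tumor 2, 643 in tumor 1 and 1076 in tumor 4, against 81.8 to 437 in normal lung. Hp, haptoglobin, fell by 4.77 (SE 1.08, adjusted p = 0.00177). It was at 506 in tumor 2, 10538.5 in tumor 7 and 15042.5 to 27849 in normal lung, and which cells gave its RNA was not tested. Tumor 2 was the highest tumor in 4 of these 7 genes (21.0% of all genes tested). Of 15 genes of mature neutrophils tested, 12 fell (30.1% of all genes tested) and 3 did not pass, with a median of -3.48. Fpr1, the receptor for bacterial formyl peptides, fell by 5.29 (SE 0.59, adjusted p = 4.82e-06). Il1b, an inflammatory cytokine, fell by 4.19 (SE 0.69, adjusted p = 0.000153). In tumor 2 Fpr1 was at 27.4 normalized counts and Il1b at 13.1, both below every normal lung. Other genes of the list went the other way there: Il1r2, a decoy receptor for interleukin-1, was at 140.6 (normal lung 17.2 to 35.5) and Asprv1, a protease, at 215.6 (40.2 to 113). Tumor 2 was the highest tumor in 8 of these 15 genes (21.0% of all genes tested). Mxd1, a gene of many cell types, did not pass (-0.28, adjusted p = 0.127).

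Factors and enzymes that neutrophils share with other cells followed the tumors as a group. Of 6 transcription factors tested, 5 fell in limma (30.1% of all genes tested) and 3 in edgeR with 12 samples (26.1%). Gfi1 did not pass in limma (1.30, adjusted p = 0.0591). Cebpe, which drives the secondary granule genes, fell by 2.75 (SE 0.77, adjusted p = 0.0071) and was at 25.0 normalized counts in tumor 2, inside the normal lung range of 9.03 to 50.5, against at most 7.04 in the other tumors. All 5 genes tested of the NADPH oxidase, which makes the oxidants of the respiratory burst, fell in limma (30.1% of all genes tested). Their median was -3.20, with Cybb, the catalytic subunit, at -4.03 (SE 0.67, adjusted p = 0.000159). In edgeR with 12 samples 2 of the 5 fell (26.1% of all genes tested). In tumor 7 this list summed to 4432, inside the normal lung range of 4324 to 8812, and in tumor 2 to 768.

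Signals that raise or recruit neutrophils moved in both directions. Csf3, which encodes G-CSF, the ligand of Csf3r, rose by 2.47 (SE 0.37, adjusted p = 6.18e-05), with 1 to 3 reads in each normal lung and 13 to 29 reads in each tumor. It was highest in tumor 2, at 33.4 normalized counts. Of the 5 growth factor and cytokine genes tested, 2 rose (Csf3 and Il6). The other 3 fell (Csf2, Csf1 and Cxcl12, which holds neutrophils in the marrow through another receptor). Of all genes tested, 31.4% rose and 30.1% fell. Of 6 chemokine genes listed as Cxcr2 ligands or their relatives, 4 fell (30.1% of all genes tested). Cxcl1 and Cxcl2 did not pass, and Ppbp, which platelets carry, fell by 8.17 (SE 0.65, adjusted p = 2.02e-07). All 6 genes of adhesion and recruitment fell in limma (30.1% of all genes tested). In edgeR with 12 samples 2 of 6 did (26.1% of all genes tested). Icam1, an adhesion protein to which neutrophils attach, fell by 5.88 (SE 0.83, adjusted p = 4.01e-05). Which cells of normal lung gave its RNA was not tested.

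Markers of other blood cells are given beside tumor 2, whose neutrophil genes they accompany or do not. All 5 erythrocyte genes were highest in tumor 2 among the tumors, summing to 13210.0 there against 94.3 to 1068 in the other 6 and 7800 to 179895 in normal lung. Slc4a1, the anion exchanger of red cells, was at 2505 normalized counts in tumor 2, 2.70 to 6.40 in the other tumors and 32.2 to 980.4 in normal lung. Tumor 2 was the highest tumor in none of 6 general leukocyte genes, none of 7 T and NK cell genes, none of 4 B cell genes, none of 5 monocyte genes and 1 of 10 macrophage genes. Over all genes tested it was the highest tumor in 21.0%, and tumor 7 had the highest sum in each of these lists, so these short counts say little about tumor 2. The general leukocyte genes summed to 1190.1 in tumor 2, 538 to 19304 in the other 6 tumors and 8572 to 16164 in normal lung. In tumor 2, 4 of the 7 T and NK cell genes had no read. What part red cells or their precursors have in the neutrophil values of tumor 2 was not tested.

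Tumor 7 had high levels of other leukocyte genes. Its general leukocyte genes summed to 19304, above the normal lung range, and its T and NK cell genes to 2050.1, above the normal lung range of 844 to 1497. As in the other tumors but tumor 2, 8 of the 10 neutrophil genes, leaving aside Camp and Ly6g, were below every normal lung. Summed over the 10 genes, tumor 7 had 409 normalized counts, second to tumor 2. The mature neutrophil list summed to 2333 in tumor 7 and 1967 in tumor 2, against 4464 to 9001 in normal lung. Eosinophil genes, of which 3 of 4 could be tested, fell in all 3 (30.1% of all genes tested fell). They summed to 23.1 in tumor 7 and 3.57 in tumor 2 against 43.7 to 178 in normal lung. Of 6 mast cell and basophil genes 3 fell (30.1% of all genes tested). The list summed to 1460.2 in tumor 7, 5.96 in tumor 2 and 153 to 297 in normal lung. Platelet genes summed to 180 in tumor 2, within the 79.3 to 305 of the other tumors. Keratinocyte genes, listed because squamous epithelium also makes S100a8 and S100a9, summed to 5.96 in tumor 2, with 4 of 6 at 0. Of 4 genes listed for marrow precursors, 2 rose in tumors, 1 fell and 1 did not pass (31.4% of all genes tested rose and 30.1% fell). None was highest in tumor 2 (21.0% of all genes tested were). The list summed to 12935 to 30182 in tumors and 3919 to 5708 in normal lung. These genes are not particular to marrow precursors, and which cells gave their RNA was not tested. Timp2, an inhibitor of matrix metalloproteases, fell by 2.87 (SE 0.25, adjusted p = 3.79e-07).

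**Figure D4:**
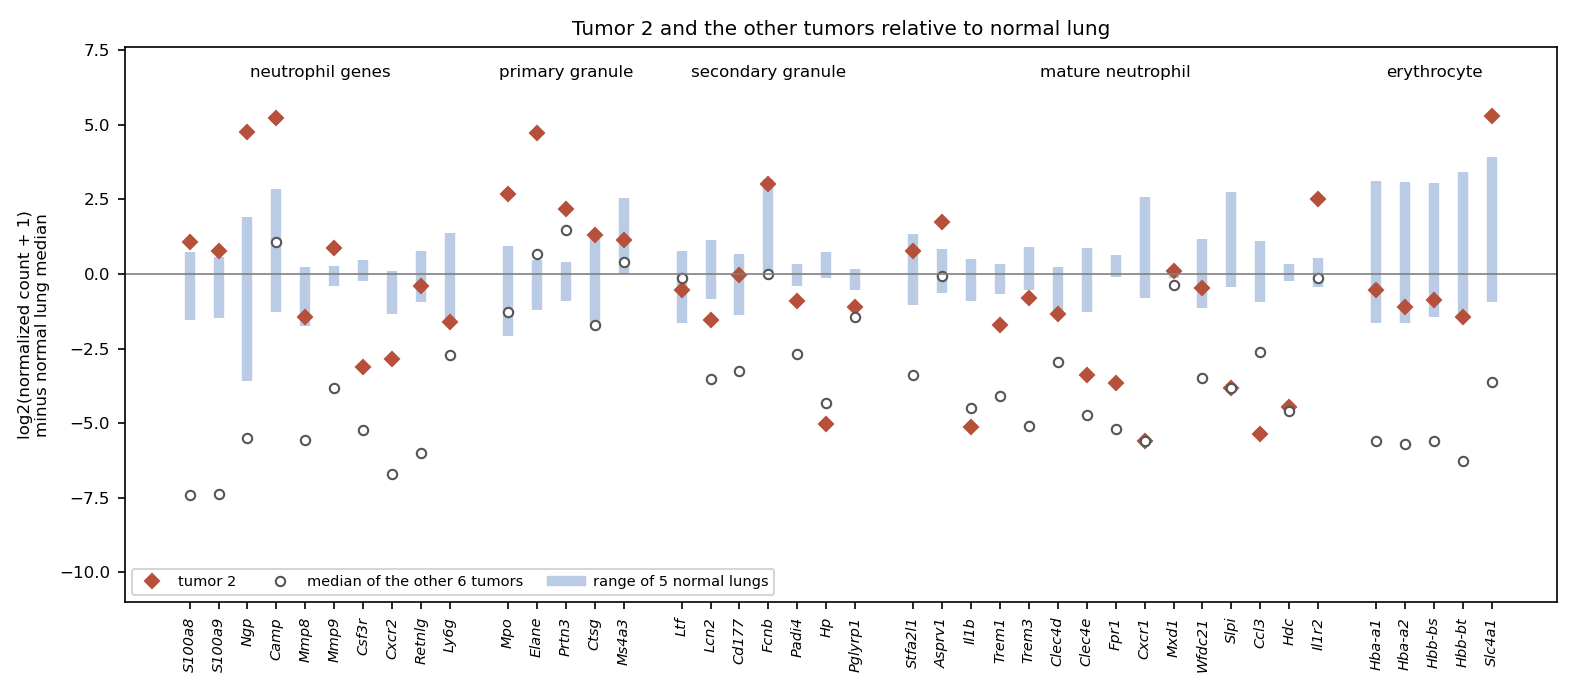
Level of each gene in tumor 2 (diamonds) and the median of the other 6 tumors (open circles), as log2(normalized count + 1) minus the normal lung median, with the range of the 5 normal lungs as bars; genes are grouped by list. Tumor 2 is above the bar in Ngp, Camp, Elane, Mpo and Slc4a1, and below it in Csf3r, Cxcr2, Il1b and Hdc.

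Across samples the 10 genes varied together to differing degrees. After the mean of each group was taken off, Pearson correlations of log2 values over the 12 samples ran from 0.17 (Csf3r with Camp) to 0.99 (S100a9 with S100a8), with a median of 0.80 over the 45 pairs. Without tumor 2 the median was 0.44, and S100a9 with S100a8 was 0.94, Mmp8 with S100a8 0.91 and Ngp with Camp 0.87. Within the 5 normal lungs alone Csf3r stood out, at -0.14 with S100a8 and -0.24 with Retnlg. These values are descriptions over samples that share libraries between genes and, among tumors, title numbers.

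The genes outside all lists whose pattern was most like the mean of the 9 more abundant neutrophil genes, by the same group-centred correlation over 12 samples and among 16382 genes, were Nudt17 (0.97), Gata1 (0.95), Btnl7-ps (0.94), Laptm4a (0.94), Kcns3 (0.93) and Ifitm6 (0.93). Without tumor 2 they were at 0.84, 0.87, 0.69, 0.52, 0.62 and 0.88. Gata1, a transcription factor of red cells, platelets, eosinophils and mast cells, had 28.7 to 96.8 normalized counts in normal lung, 67.9 in tumor 2 and 0.991 to 8.33 in the other tumors. Laptm4a was at 47416 normalized counts in tumor 2, 2507 to 3599 in the other tumors and 6916 to 11881 in normal lung.

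The summed level of the 10 genes is given by title number. Summed over the 10 genes, tumors 3 and 4 had 43.6 and 136 normalized counts, and tumors 5, 6 and 7 had 97.1, 111 and 409, most of the last being Csf3r. Tumor 1 had 80.4 and tumor 2 had 8924, against 2602 to 6937 in normal lung. When tumors of 1 number were averaged, each of the 10 genes kept its call from the comparison of all samples. Camp and Ngp again did not pass (adjusted p = 0.27 and 0.241 in limma). The share of all genes lower in that fit is not given.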

How the data were processed

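RNA from normal lung and tumors was selected by poly-A and read as paired ends, per the labels' protocols. The deposited table holds a signal, the authors' normalized reads per gene; the submitters' processing notes name featureCounts, DESeq2 and the build GRCm39, with no version. The aligner, annotation and use of the strand are not given in the sources used here. In every column 100% of values were whole multiples (tolerance 0.001) of 1 step, whose reciprocal equals a median-of-ratios size factor (0.619 to 1.58), which gives back the reads. Reads are not independent molecules, so read numbers carry more than counting error.

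Gene symbols and exon lengths came from GENCODE M21, and 29982 of 30399 identifiers had a symbol. No annotated span of another listed gene overlapped any of the 10 genes. The 23674 genes whose mean reached 1 entered limma 3.58.1 (R 4.3.3) as log2(value + 1), two-sided, with Benjamini-Hochberg adjustment over all of them. Log2 differences on this scale understate those of low genes. Alternatives used edgeR 4.0.16 (quasi-likelihood, TMM factors) and DESeq2 1.42.0 without replacing outlying counts, both on recovered reads. None of the 31 same-group pairs of libraries matched closely enough to be 1 library (lowest chi-square over degrees of freedom 18.4).

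On simulated counts for 23359 genes, limma recovered 18 of 50 genes changed 2-fold and 50 of 50 changed 4-fold, and 2.89% of its calls were false. The simulation changed 200 genes, gave both groups the same spread and held no outlying sample. In the real data 30.1% of genes were called lower and 31.4% higher, and tumor 2 stood apart. These rates therefore need not hold for the 10 genes. The 10 genes and all lists were chosen with earlier results of these data known. Listed genes not found in the table were not analysed here, and 1 further listed gene is not reported here. Named genes are the 10, list genes highest in level or largest in change (at most 4 a list), defining markers of cell types, and the 6 genes most alike in pattern. Cd177, Il1b, Il1r2, Asprv1 and Cebpe were named after their values were seen. Figures used matplotlib 3.10.9.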

Additional observations from a re-analysis of the deposited data

Results flagged for a closer look

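Single samples were compared with the rest of their group in 20 comparisons (10 genes, 2 groups) by Dixon's ratio on log2(normalized count + 1). Tumor 2 stood apart in 6 of them, where independent comparisons would give about 1. The comparisons are not independent, because the genes varied together (median correlation 0.80 over the 12 samples). The 6 are thus 1 sample seen in 6 genes, and chance was not tested. Its value was 10.34 for S100a8 (other tumors 0 to 3.18), 11.48 for S100a9 (1.58 to 3.62), 8.23 for Camp (2.89 to 4.51), 11.68 for Ngp (0 to 2.13), 9.47 for Mmp9 (3.71 to 5.37) and 6.11 for Cxcr2 (1.18 to 3.22). No normal lung stood apart by this measure.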

How the results depend on the processing

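Over 24 alternatives the number of the 10 genes lower in tumor was 8 in the reported test and 5 in both edgeR with TMM factors and DESeq2 on 12 samples. Leaving out 1 sample at a time gave 8 to 9, and no alternative placed any of the 10 higher. Of all genes tested, 30.1% were lower in the reported test, 26.1% in edgeR with 12 samples and 30.2% in limma without tumor 2. The share is not given for the other fits. The sign of Ngp turned in edgeR (1.19) and DESeq2 (1.24), and that of Camp in edgeR without tumor 2 (-0.44), an alternative chosen, like leaving out tumors 2 and 7 together, after seeing the data. Ngp passed under a pseudocount of 0.1 (-4.91), without normal lung 5 (-4.86), and in all 3 fits without tumor 2 (-5.50 in limma, -6.83 in edgeR, -5.25 with tumor 7 also left out). S100a8, S100a9 and Mmp9 lost their calls in edgeR and DESeq2 with 12 samples, and the fits without tumor 2 gave them. Csf3r, Cxcr2, Mmp8, Retnlg and Ly6g kept theirs in every alternative that tested them. Scaling all columns to equal totals moved the median over all genes by 0.19. The cause of the difference between tests was not tested. Genes with 3 reads or fewer, such as Ly6g in all 7 tumors, cannot be ranked at this depth. No paired analysis was possible because the labels give the groups no shared replicate numbers.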
